A study of Mus musculus with 2 samples.

Results

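The genes of the proteasome were examined in the livers of male mice deficient in apolipoprotein E. They were all genes whose platform symbol begins with Psm, followed by a letter from a to g and a number, and that had a probe set naming no other gene. Of 48 such genes listed, 46 were found, among 12393 genes with such a probe set in all. Psmb11 and Psme2 were not analysed here, Psme2 because the probe set that names it also names its copy Psme2b. Each gene was represented by the probe set whose mean log2 signal over both pools was highest, and the 46 genes had 83 probe sets in total.

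The squalene pool came from mice given chow and a drink of 1% glycerol with squalene, a triterpene precursor of cholesterol, in a daily dose of 1 g per kg over 10 weeks. The control pool came from mice given chow and the 1% glycerol drink alone for 10 weeks. Mice of both pools lacked apolipoprotein E, had a C57BL/6J/ OLA129 background and were listed as 2 months old. Lack of apolipoprotein E slows the clearance of remnant lipoproteins and leads to atherosclerosis, so neither pool is a normal liver. How many animals made up a pool is not stated in the labels. Each pool was measured on 1 Affymetrix array, so there are no replicates, no p-value was computed, and every ratio below compares these pools only.

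The array median signal was 41.3 in the squalene pool and 39.9 in the control pool, and the trimmed mean signal was 200.1 in each. The 18 probe sets of the hybridization spike-ins all read lower in the squalene pool (median log2 ratio -0.26), beside a median of 0.01 over all genes. A ratio between a pair of genes on the same arrays is free of that offset, and the direction of a single gene is not. The hepatocyte markers Alb, with signals of 14625.1 in the squalene pool and 16656.0 in the control pool, and Ttr were among the brighter genes, as the label of liver implies. Apoe read 130.6 in the squalene pool and 141.0 in the control pool on 1 probe set, whose position relative to the deleted part is not given.

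The proteasome degrades proteins tagged with ubiquitin. Its barrel-shaped core, the 20S particle, is built of alpha subunits, which form the gate, and beta subunits, some of which cut peptide bonds. The 19S cap recognises, unfolds and feeds in the substrate. Interferon gamma and related signals induce alternative catalytic subunits, Psmb8, Psmb9 and Psmb10, which replace Psmb5, Psmb6 and Psmb7 in newly made cores to give the immunoproteasome, and the PA28 cap subunits Psme1 and Psme2. These forms are abundant in leukocytes and are known for shaping the peptides shown on MHC class I molecules. In hepatocytes the constitutive subunits prevail.

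The promoter windows of the 4 measured immunoproteasome and PA28 genes and of the constitutive catalytic subunit Psmb5 are shown because those 4 genes read lower together in the squalene pool and Psmb5 did not. Each window runs from 250 bases before to 50 bases after the annotated start, from RefSeq on build GRCm38.p6, 5′ to 3′ on the gene's strand. Psmb8 lies at chr17:34197945-34198244 on the plus strand, Psmb9 at chr17:34187281-34187580 on the minus strand, and Psmb10 at chr8:105938343-105938642 on the minus strand. Psme1 lies at chr14:55578244-55578543 on the plus strand and Psmb5 at chr14:54617946-54618245 on the minus strand. Capitals mark the letters of the motifs named in the next paragraph.
Psmb8: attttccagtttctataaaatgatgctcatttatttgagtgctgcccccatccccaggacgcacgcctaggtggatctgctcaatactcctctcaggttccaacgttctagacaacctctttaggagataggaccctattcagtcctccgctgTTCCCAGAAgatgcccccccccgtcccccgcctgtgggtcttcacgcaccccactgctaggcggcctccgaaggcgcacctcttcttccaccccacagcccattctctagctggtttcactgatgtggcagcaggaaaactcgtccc
Psmb9: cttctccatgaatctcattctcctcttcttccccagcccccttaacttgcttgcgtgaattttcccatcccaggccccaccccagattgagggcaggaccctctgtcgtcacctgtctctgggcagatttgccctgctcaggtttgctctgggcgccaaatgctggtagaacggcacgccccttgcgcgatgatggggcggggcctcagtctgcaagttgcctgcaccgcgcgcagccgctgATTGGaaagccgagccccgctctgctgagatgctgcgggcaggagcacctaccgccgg
Psmb10: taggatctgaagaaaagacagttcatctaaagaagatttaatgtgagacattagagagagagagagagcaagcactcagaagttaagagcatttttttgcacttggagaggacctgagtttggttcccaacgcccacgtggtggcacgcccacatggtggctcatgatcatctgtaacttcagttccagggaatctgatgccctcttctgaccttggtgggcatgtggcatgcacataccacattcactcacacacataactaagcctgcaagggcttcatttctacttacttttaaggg
Psme1: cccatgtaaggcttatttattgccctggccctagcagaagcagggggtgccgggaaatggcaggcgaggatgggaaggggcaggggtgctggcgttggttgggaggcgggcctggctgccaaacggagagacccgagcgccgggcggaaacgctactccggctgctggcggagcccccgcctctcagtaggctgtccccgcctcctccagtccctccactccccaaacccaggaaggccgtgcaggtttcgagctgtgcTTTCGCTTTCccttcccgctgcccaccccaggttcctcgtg
Psmb5: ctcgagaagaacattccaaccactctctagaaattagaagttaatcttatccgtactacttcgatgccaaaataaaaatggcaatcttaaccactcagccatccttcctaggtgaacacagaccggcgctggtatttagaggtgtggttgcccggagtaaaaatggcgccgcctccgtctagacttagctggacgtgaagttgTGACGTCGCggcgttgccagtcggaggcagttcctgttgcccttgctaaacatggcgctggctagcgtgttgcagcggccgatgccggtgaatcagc

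A window was found for 38 of the 46 genes. On both strands, 4 motifs were searched: an interferon-stimulated response element (GAAA, any 2 bases, GAAA), a gamma-activated site (TTCNNNGAA), an antioxidant response element (TGACNNNGC), through which the factor Nfe2l1 acts on proteasome genes, and the CCAAT box bound by NF-Y. In the windows above the motifs did not overlap each other. The Psme1 window held the interferon element, as did those of Psmb3, Psmd4, Psmd9 and Psmg4 (5 of 38 genes, beside 3.44% of all 32851 windows). The Psmb8 window held the gamma-activated site, as did Psmd2 and Psmg1 (3 of 38 genes, beside 8.3% of all windows). The Psmb5 window held the antioxidant element, as did Psmb6, Psmc6, Psmd12, Psmd9 and Psme4 (6 of 38, beside 12.4%). The CCAAT box was found for 13 of 38 genes, Psmb9 among them (beside 37.4%), and the Psmb10 window held none of these letters. A match describes the window only.

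The comparison asks whether the immunoproteasome genes read differently from the constitutive ones with squalene. All 4 measured immunoproteasome and PA28 genes read lower in the squalene pool, while the constitutive subunits lay close to a log2 ratio of 0. Below 0 lay 45.9% of the 1632 genes with a mean signal between those of Psmb9 and Psmb10. In the signal range of the constitutive subunits, which holds Psme1, 50% of 2779 genes lay below 0. The median log2 ratio of squalene over control was -0.42 over the 4 genes and -0.04 over 31 constitutive subunits, a difference of -0.38, or 1.30-fold. The range was -0.65 to -0.28 over the 4 genes and -0.34 to 0.28 over the constitutive subunits. Psmb8, Psme1 and Psmb9 lay below that constitutive range, and Psmb10 lay inside it. Scaled to the spike-ins, the medians would be -0.16 over the 4 genes and 0.22 over the constitutive subunits, with Psmb10 at -0.02 and the difference of -0.38 as it was.

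Psmb8, which replaces Psmb5 and has chymotrypsin-like activity, read 135.5 in the squalene pool and 213.0 in the control pool, 1.57-fold lower (log2 ratio -0.65). Psmb9, which replaces Psmb6, read 87.0 in the squalene pool and 114.0 in the control pool, 1.31-fold lower (log2 ratio -0.39). Psmb10, which replaces Psmb7, read 188.8 in the squalene pool and 229.5 in the control pool, 1.22-fold lower (log2 ratio -0.28). So all 3 inducible catalytic subunits had the lower signal in the squalene pool, each on a single probe set. Psme1, a subunit of the PA28 cap that opens the core for peptides without ubiquitin, read 803.4 in the squalene pool and 1097.2 in the control pool, 1.37-fold lower (log2 ratio -0.45).

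Their constitutive partners differed less between the pools. Psmb5 read 911.0 in the squalene pool and 872.6 in the control pool (log2 ratio 0.06). Psmb6 read 1174.6 in the squalene pool and 1293.0 in the control pool (log2 ratio -0.14). Psmb7 read 3437.2 in the squalene pool and 3313.6 in the control pool (log2 ratio 0.05). Partner was also set against partner, which removes any scale factor of an array. The log2 ratio of Psmb8 less that of Psmb5 was -0.71. The same difference was -0.25 for Psmb9 less Psmb6 and -0.33 for Psmb10 less Psmb7, so each inducible subunit had the lower ratio of its pair. Genes with a mean signal between those of Psmb9 and Psmb10 had an SD of 0.38 in their log2 ratios. The differences of -0.25 and -0.33 were smaller than that in size, and the one for Psmb8 was larger. No error was computed for a difference between partners, and the constitutive partners were brighter.

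**Figure D1:**
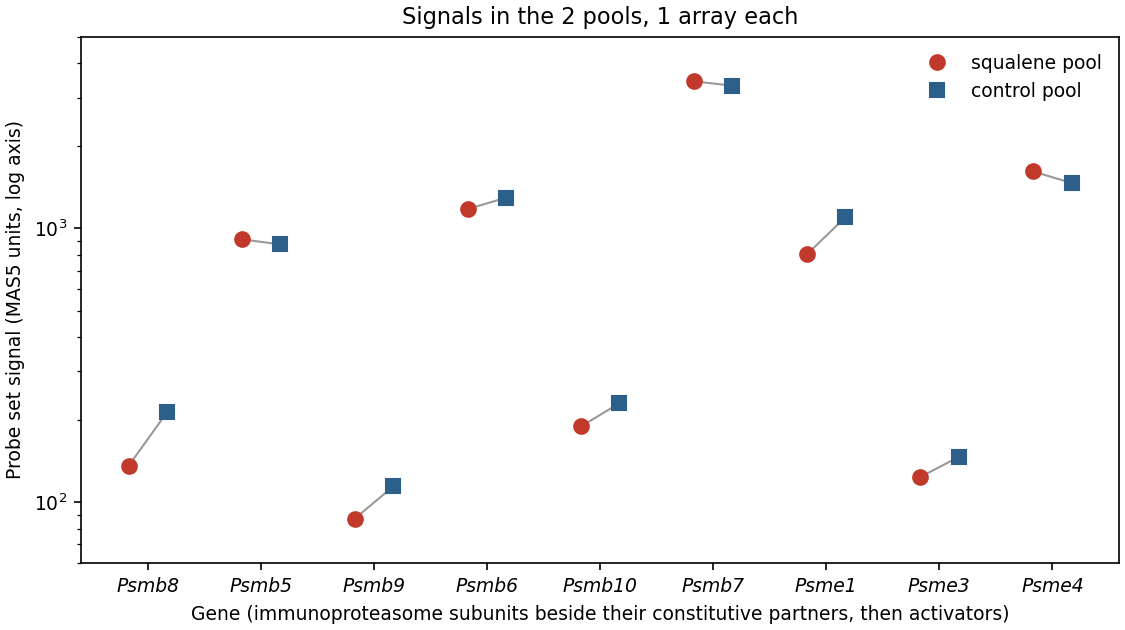
Probe set signal (MAS5 units, log axis) of the inducible catalytic subunits beside the constitutive subunits they replace, and of the activator genes, with circles for the squalene pool and squares for the control pool, 1 array each. Psmb8, Psmb9, Psmb10 and Psme1 are lower in the squalene pool, while Psmb5 and Psmb7 are slightly higher there (log2 ratios of 0.06 and 0.05). Heights are to be read within a gene, not between genes.

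With 1 array per group, the spread between probe sets of the same gene was used as a measure of error. It comes from the same arrays and holds no variation between animals, pools or arrays, so it understates the error of a difference between pools. Its SD, on the log2 ratio, was 0.24 in the brightest tertile of probe sets, which begins at a mean signal of 97.1 and holds all 4 genes, 0.71 in the middle tertile and 1.91 in the dimmest. The ratios of Psmb8 (-0.65), Psme1 (-0.45) and Psmb9 (-0.39) were thus farther from 0 than that SD, and that of Psmb10 (-0.28) only slightly so. Psmb8, Psmb9 and Psmb10 had mean signals of only 99.6 to 208.2. The 1632 genes with a mean signal between those of Psmb9 and Psmb10 had an SD of 0.38 in their log2 ratios, and their central 95% ran from -0.68 to 0.79. By that measure Psmb9 lay at about the SD, Psmb10 within it, and Psmb8 beyond it but inside the central 95%. Psme1 lay beyond the SD of 0.30 over 2779 genes in the signal range of the constitutive subunits, and inside their central 95%, which began at -0.58. Of all genes, 19.8% had a log2 ratio lower than -0.5, against 4 of the 46 proteasome genes, Psmb8, Psmg3, Psmg4 and Psma8. Most genes on the array are dimmer than these, so genes of like signal were also counted. Of the 1632 genes with a mean signal between those of Psmb9 and Psmb10, 7.05% read lower than -0.5 and 16.7% lower than -0.3. Of the 3 catalytic immunoproteasome subunits, which span that window, 1 read lower than -0.5 and 2 lower than -0.3. Psme1, with a mean signal of 938.9, lies outside the window.

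The alpha ring varied least, at mean signals of 1335.4 to 3240.1, and the part of brightness in that was not tested. The 7 alpha subunits, Psma1 to Psma7, had log2 ratios from -0.16 for Psma2 to 0.08 for Psma5, with a median of -0.02. Psma2 read 1319.1 in the squalene pool and 1469.4 in the control pool. Psma5 read 2120.9 in the squalene pool and 1999.9 in the control pool, and Psma6 differed least of all (2278.4 in the squalene pool and 2287.3 in the control pool). Psma3 (-0.02), Psma1 (0.04), Psma4 (-0.10) and Psma7 (-0.11) lay between. No alpha subunit reached a log2 ratio of 0.3 in either direction on its brightest probe set, although the bright probe sets of Psma6 lay 0.49 apart.

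The structural beta subunits, which do not cut peptides, held the lowest constitutive genes. Psmb2 read 197.5 in the squalene pool and 249.6 in the control pool (log2 ratio -0.34), lower than Psmb10. Psmb3 read 2234.1 in the squalene pool and 2775.3 in the control pool (log2 ratio -0.31), but its other probe set gave -0.07. Psmb4 stood at -0.07 and Psmb1 at 0.06, so the 4 genes had a median of -0.19 without sharing a direction.

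The 6 ATPases of the 19S base, which unfold the substrate, had a median of -0.05. Psmc4 was the lowest, with 1748.3 in the squalene pool and 2021.2 in the control pool (log2 ratio -0.21), and -0.08 on its other probe set. Psmc1 was the highest, with 1093.3 in the squalene pool and 955.7 in the control pool (log2 ratio 0.19). Psmc2, Psmc3, Psmc5 and Psmc6 lay between -0.06 and -0.03, but Psmc6 gave -0.31 and 0.21 on its other probe sets. On their brightest probe sets, ATPases thus stayed within the range of the other constitutive subunits.

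The 11 non-ATPase subunits of the 19S cap had a median of 0.02. At the upper end, Psmd7, which forms a dimer with the deubiquitinase Psmd14, read 533.6 in the squalene pool and 438.1 in the control pool (log2 ratio 0.28). Its dimmer probe sets gave 0.49 and 0.55, but with signals below the array median in both pools, so they add little. Psmd14 itself stood at 0.05. Psmd6 read 2258.8 in the squalene pool and 1978.5 in the control pool (log2 ratio 0.19), with -0.01 on its other probe set. At the lower end were Psmd8 (-0.19) and the ubiquitin receptor Psmd4 (-0.15). The scaffold subunits Psmd1 (0.02) and Psmd2 (-0.07), and Psmd3, Psmd11, Psmd12 and Psmd13, all lay between -0.09 and 0.06.

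As a set, the constitutive subunits spread less than all genes within their range of mean signal, 222.0 to 4570.1. That range is wide, spread falls as signal rises, and genes were not matched on signal within it. The part of brightness in the smaller spread was not tested. The SD of their log2 ratios over the 31 genes was 0.14, beside 0.30 over 2779 genes within the same range of mean signal. None of the 31 lay beyond 0.5 in either direction, where 7.95% of those 2779 genes did. Beyond 0.3 lay 2 of the 31, Psmb2 and Psmb3, both lower, beside 23.1% of the 2779. Of the 31, 19 lay below 0, beside 50% of the 2779.

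**Figure D2:**
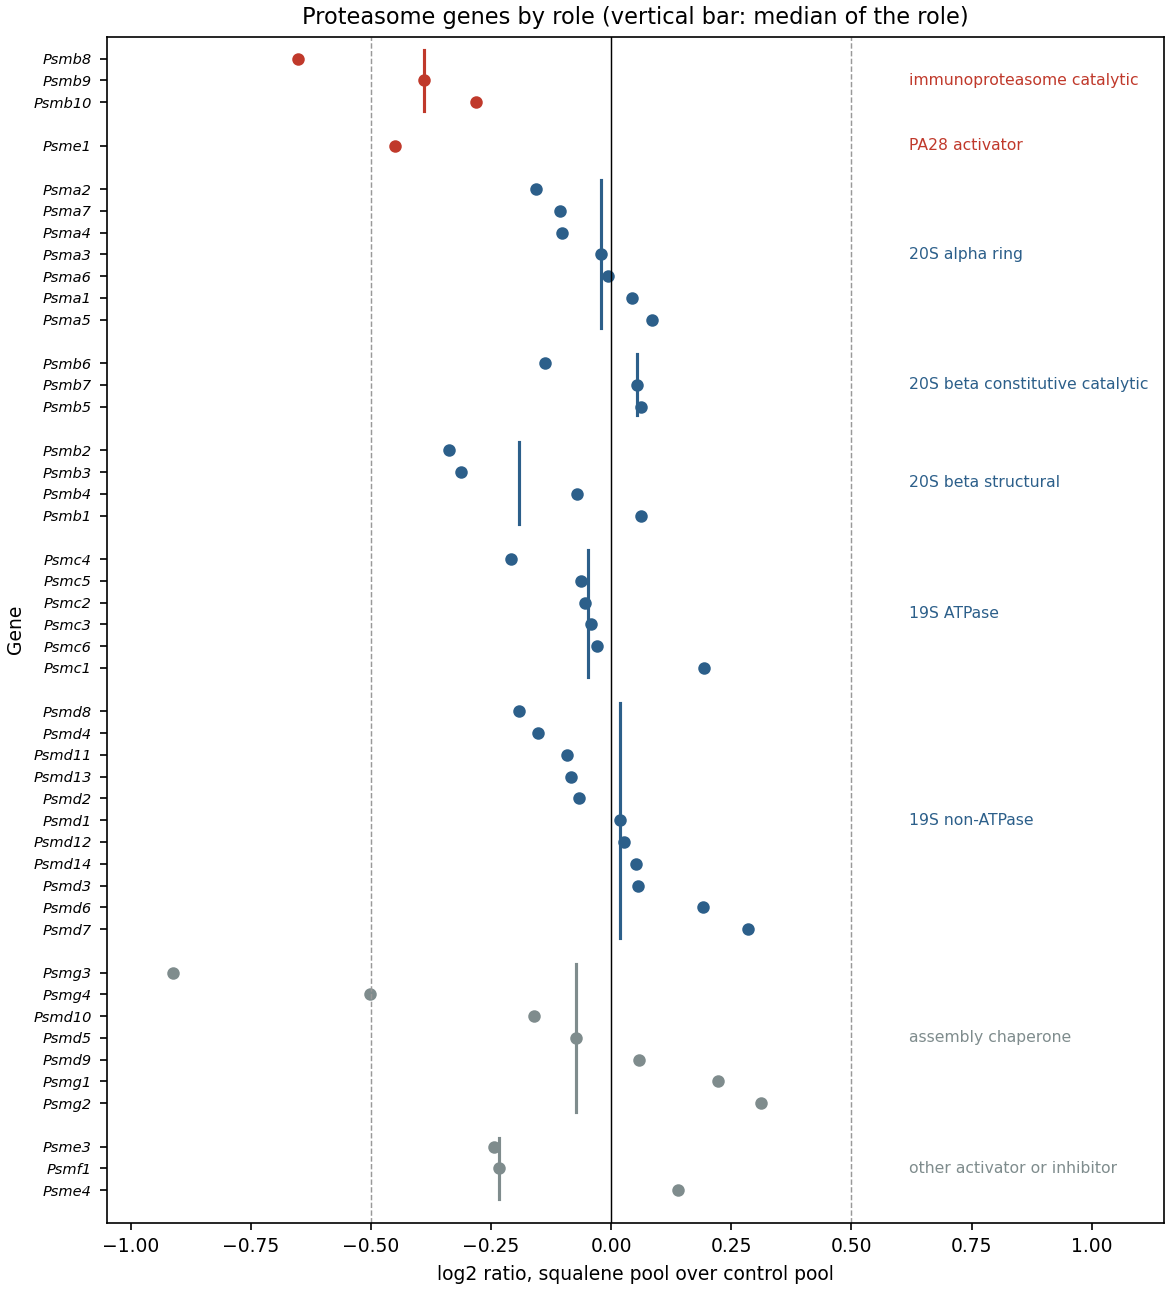
The log2 ratio of squalene over control (x axis) for 45 proteasome genes (y axis), grouped by role, with the median of each role as a vertical bar and dashed lines at 0.5 and -0.5. The immunoproteasome and PA28 genes lie between -0.65 and -0.28, the constitutive subunits between -0.34 and 0.28, and Psmg3 at -0.91. Psma8, below the array median in both pools, is not drawn.

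Assembly chaperones, which build the particle and then leave it, varied most, with an SD of 0.43 over genes. They were dimmer than most constitutive subunits, with mean signals of 126.8 to 432.9. All genes with a mean signal between those of Psmb9 and Psmb10 had an SD of 0.38. The part of brightness in the spread of the chaperones was not tested. Psmg3 read 123.5 in the squalene pool and 232.4 in the control pool, 1.88-fold lower (log2 ratio -0.91), the lowest ratio among the proteasome genes with signals above the array median. Psmg4, its partner in a dimer that guides the alpha ring, read 110.8 in the squalene pool and 156.9 in the control pool (log2 ratio -0.50). The members of the other dimer that guides the ring, Psmg1 and Psmg2, stood the other way. Psmg1 read 467.5 in the squalene pool and 400.8 in the control pool (log2 ratio 0.22). Psmg2 read 190.1 in the squalene pool and 153.2 in the control pool (log2 ratio 0.31), but -0.01 on its other probe set. The chaperones of the 19S base, Psmd5 (-0.07), Psmd9 (0.06) and Psmd10 (-0.16), lay near 0. Over the 7 chaperones the median was -0.07, with 2 lower and 0 higher beyond 0.5, beside 19.8% and 21.5% of all genes. Psmg3 and Psmg4 had mean signals between those of Psmb9 and Psmb10, where 7.05% of genes read lower than -0.5.

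Of the remaining activators and the inhibitor, Psme3 and Psmf1 lay below 0 like Psme1, and Psme4 lay above 0. Psme3, the nuclear relative of the PA28 subunits, read 123.3 in the squalene pool and 146.0 in the control pool (log2 ratio -0.24), and 0.05 on its next probe set. Psme4, which encodes the PA200 activator, read 1610.8 in the squalene pool and 1462.3 in the control pool (log2 ratio 0.14), with 0.22 and 0.39 on its other probe sets. Psmf1, a protein named for inhibition of the core in vitro, stood at -0.23, with -0.08, -0.40 and 1.71 on its dimmer probe sets. Psma8, an alpha subunit of the testis, read 3.3 in the squalene pool and 24.7 in the control pool, both below the array median, so these signals have no order. It was the only proteasome gene beyond a log2 ratio of 1.5, the screen the submitters state, beside 15.2% of all genes.

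Genes of like signal narrow the contrast. The catalytic immunoproteasome subunits had mean signals of 99.6 to 208.2, while the constitutive subunits began at 222.0. Besides them, 6 proteasome genes lay in that window, Psmd10, Psme3, Psmf1, Psmg2, Psmg3 and Psmg4, none of them a constitutive subunit. Their median was -0.24, with 5 of 6 below 0 and a range of -0.91 to 0.31. Against these 6 genes, the median of the 3 catalytic subunits was lower by a difference of -0.15, in place of -0.35 against the constitutive subunits. This comparison was added after the values were seen. Psme1, with a mean signal of 938.9, lies in the signal range of the constitutive subunits, where 11% of all genes in that range read lower than -0.3.

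**Figure D3:**
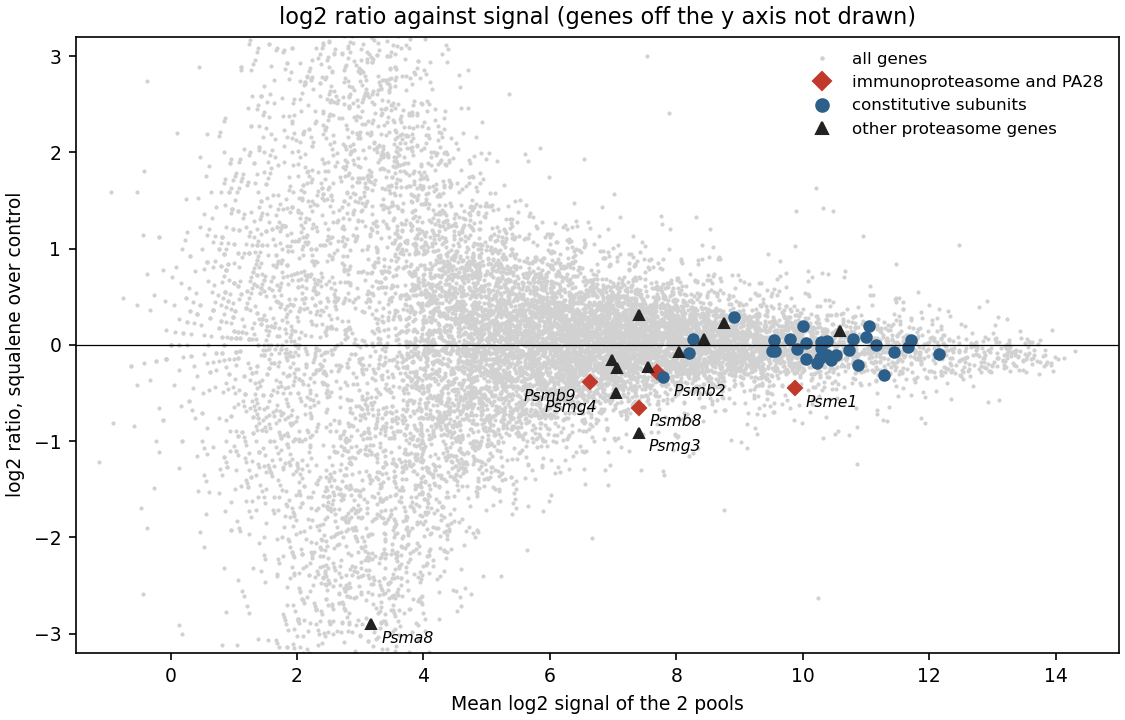
The log2 ratio of squalene over control (y axis) against the mean log2 signal of both pools (x axis), with all genes in grey, except those off the y axis, and the proteasome genes marked by set. The grey cloud narrows as signal increases, most constitutive subunits sit in its narrow bright end near 0, and Psmb8, Psmb9, Psmb10, Psmg3 and Psmg4 sit in its wider middle.

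Probe sets of the same gene did not always give the same ratio. For 15 proteasome genes with several probe sets in the brightest tertile, the gap between the lowest and the highest log2 ratio had a median of 0.22 and ran from 0.03 for Psmc2 to 0.60 for Psmb1, with 0.49 for Psma6. The widest gaps thus exceeded the difference of -0.38 between the sets in size. Psmd11 had 4 such probe sets, from -0.17 to 0.07. Psmb8, Psmb9, Psmb10, Psme1, Psmg3 and Psmg4 had 1 probe set each, so this check was not open for the lowest genes.

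In the class I peptide pathway, whose proteins move and load the peptides the proteasome makes, 8 of 10 genes lay below 0. In RefSeq order Psmb9, Tap1, Psmb8 and Tap2 follow each other on chromosome 17. Tap1, a subunit of the peptide transporter, read 71.3 in the squalene pool and 121.4 in the control pool (log2 ratio -0.77), but its other, dimmer probe sets read 0.80, 0.92 and 1.86. Tap2 read 21.1 in the squalene pool and 34.2 in the control pool, both below the array median. The loading chaperones Pdia3 (-0.42) and Calr (-0.33) and the class I chain H2-K1 (-0.31) were below 0, and Tapbp, the bridge between transporter and class I chain, stood at 0.09. That count of 8 stands beside 48.6% of all genes, and the median was -0.26, beside 0.01 over all genes. Lower than -0.5 were 2 of the 10, close to the 19.8% of all genes, and 0 were higher than 0.5. Scaled to the spike-ins, 5 of the 10 would lie below 0.

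Genes for proteins that work with the proteasome had a median near 0 as a list in the values as deposited. Of 19 partners measured of 24 listed, 14 lay above 0, beside 51.1% of all genes, with a median of 0.10 and an SD over genes of 0.28. Higher than 0.5 was 1 of them, beside 21.5% of all genes, and 1 was lower than -0.5. Scaled to the spike-ins, the median of the partners would be 0.36, with 1 of the 19 below 0. The deubiquitinase Uchl5, which sits on the cap, read 323.2 in the squalene pool and 233.7 in the control pool (log2 ratio 0.47). Its other probe set gave 0.61, but with both signals below the array median. Ufd1, an adaptor of the unfoldase Vcp, stood at 0.61 but at -0.25 on its other probe set, and Nsfl1c, another Vcp adaptor, read 710.7 in the squalene pool and 1119.4 in the control pool (log2 ratio -0.66). The shuttle receptor Ubqln4 was at 0.41, Vcp at 0.23, and Nfe2l1, which drives proteasome genes when proteasome activity falls short, at 0.34. Of 7 genes for ubiquitin and its activating enzymes, only Uba7, the activating enzyme of the interferon-induced modifier ISG15, was measured, with 43.3 in the squalene pool and 55.3 in the control pool (log2 ratio -0.35).

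Macrophage markers and most pan-leukocyte markers also read lower in the squalene pool, while lymphocyte markers were too dim to read and went both ways. Over all genes, 48.6% lay below 0. All 12 macrophage and Kupffer cell markers measured lay below 0, with a median of -0.68, none of them was at 0, and their summed signal was 4520.6 in the squalene pool and 6964.1 in the control pool. Lyz2 stood at -1.07, Clec4f at -0.70 and Msr1 at -1.33. Of 7 pan-leukocyte markers, 6 lay below 0, with a median of -0.57 and summed signals of 610.2 in the squalene pool and 866.3 in the control pool. Tyrobp stood at -0.75, and Coro1a, with both signals below the array median, at 0.81 (-1.23 on the mean of its probe sets). Laptm5 was counted below 0 with a ratio of -0.09, but its dimmer probe sets gave -0.61 and 2.20. Scaled to the spike-ins, 11 of the 12 macrophage markers and 5 of the 7 pan-leukocyte markers would still lie below 0. All 12 lymphocyte markers measured had a mean signal below the array median. Of these, 6 lay below 0 and 6 above, with a median of 0.08 and summed signals of 132.6 in the squalene pool and 221.5 in the control pool. Most of that gap came from Klrk1 (2.9 in the squalene pool and 45.8 in the control pool) and Ccl5 (8.0 in the squalene pool and 43.3 in the control pool). Of 8 endothelial markers 6 lay below 0 (3 when scaled to the spike-ins), with a median of -0.18 and sums of 1169.7 in the squalene pool and 1618.1 in the control pool. Most of the gap between these sums came from Clec4g (522.2 in the squalene pool and 864.9 in the control pool), whose other, dimmer probe set stood at 0.72. The 8 hepatocyte markers had a median of -0.02, with sums of 99023.2 in the squalene pool and 100866.6 in the control pool. Scaled to the spike-ins, the hepatocyte median would be 0.23, with 0 of 8 below 0. The part of these cell types in the lower Psmb8, Psmb9, Psmb10 and Psme1 was not tested, and in pooled tissue fewer cells of a type and less RNA per cell cannot be told apart.

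**Figure D4:**
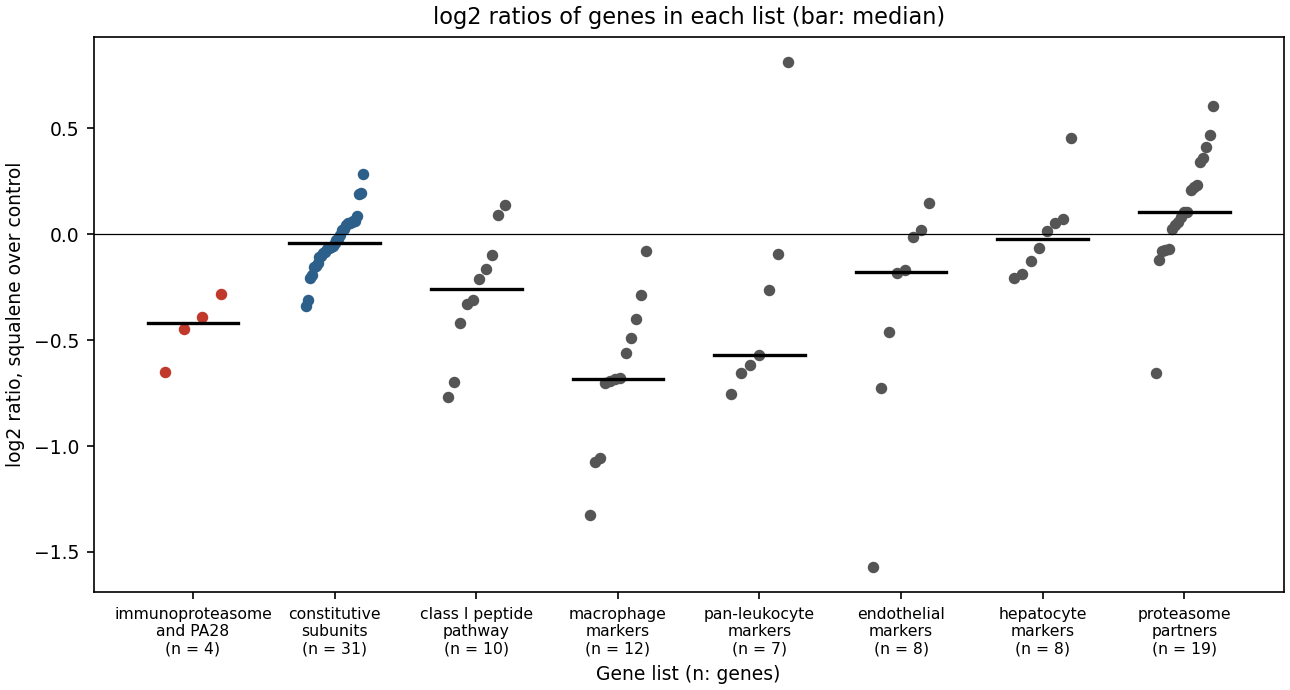
The log2 ratio of squalene over control (y axis) for the genes of each list (x axis), with a point per gene and a bar at the median. The immunoproteasome and PA28 genes (median -0.42) lie between the class I peptide pathway (-0.26) and the pan-leukocyte (-0.57) and macrophage markers (-0.68), while constitutive subunits and hepatocyte markers centre near 0.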

How the data were processed

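Liver RNA was measured on 2 arrays, 1 for each pool, and groups were taken from the sample titles. The values the authors deposited are linear intensities, 1 for each probe set, from MAS5, per the submitters' processing notes. The software version is not given in the sources used, and detection calls were not used. The common trimmed mean of both arrays (2% trimmed at each end) was seen in the values. Their number limits the precision.

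Of 22626 probe sets that are not array controls, 20380 had 1 gene symbol in the platform annotation, 691 several and 1555 none, and only the first kind was used. All 46 proteasome genes matched RefSeq (GRCm38.p6) by Entrez number, with the same symbol. The log2 ratio was taken without a pseudocount or a filter on signal, and limits of 0.5, 0.3 and the submitters' screen of 1.5 were used, past which only Psma8 lay. No value was tested between groups. The steps were tested on simulated data. The genes described, the lists and the limits were chosen with earlier results of these data known. Named genes were every proteasome gene, and from the other lists up to 4 with the largest ratios, with Tap1 and Nfe2l1; other list genes were named after their values were seen. Alternatives covered probe set choice, filters, scaling, quantile normalization, loess (limma 3.58.1, R 4.3.3), a pseudocount of 3.0 and a floor. Python 3.11.15, numpy 2.4.6, pandas 2.3.3 and matplotlib 3.10.9 were used.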

Additional observations from a re-analysis of the deposited data

How the results depend on the processing

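The median of the immunoproteasome and PA28 genes stayed below 0 under all alternatives run, between -0.46 and -0.16, and its difference from the constitutive median stayed between -0.43 and -0.32. Each of the 4 genes had 1 probe set and signals above the floor. The mean or choice of probe sets, the filter at the median and the floor thus could not move their median. Over plain-suffix probe sets, with the 75th percentile filter and for the catalytic subunits alone, the median covered 3 genes. The catalytic subunits less the 6 other proteasome genes of like signal, none of them constitutive, gave -0.15. Scaled to the spike-ins, the 4 genes had a median of -0.16 and the constitutive subunits one of 0.22, in place of -0.04, because that scaling adds a constant to every ratio. Their difference does not depend on it. Under that scaling Psmb10 was at -0.02, while Psmb8 was at -0.39. With 1 array per group the signal over background sets what can be read, and dim genes such as Psma8 have no usable ratio.

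The count of proteasome genes beyond 0.5, 4 in the main setting, was 2 of 41 with mean signals at or above the 75th percentile, 9 at a limit of 0.3 (8 lower and 1 higher) and 1 at a limit of 1.0. Scaled to the spike-ins it was also 4, but not of the same genes: Psmg3 (-0.65) and Psma8 (-2.65) remained lower, Psmb8 and Psmg4 were no longer past the limit, and Psmd7 (0.54) and Psmg2 (0.57) were higher. In the main setting, 19.8% of all genes read lower than -0.5 and 21.5% higher than 0.5. The share of all genes was not counted at the other settings, so those counts are no result about the proteasome genes. Lower than -0.3 were 16.7% of genes with a mean signal between those of Psmb9 and Psmb10, and 11% in the constitutive range. Of 492 values of single proteasome genes under 11 alternatives, 434 moved by less than the spread between probe sets, 58 by more, and 0 of those called beyond 0.5 changed sign. Those called, Psmb8, Psmg3, Psmg4 and Psma8, had 1 probe set each, so probe set choice could not turn them. Filters, a pseudocount and a floor cannot turn a sign, and the spike-in median of -0.26 is smaller than 0.5 in size. That 0 was therefore largely fixed in advance, and so were many of the 434. For the 25 genes with 1 probe set, the probe set settings and the filters return the same value or none. Scaling to the spike-ins shifts every ratio by the same amount, slightly more than the spread of 0.24 in the brightest tertile. Many of the 58 come from that constant, so neither count measures robustness. Among other named genes beyond 0.5 the sign turned for Tap1 (0.70) and Coro1a (-1.23) with the mean of all probe sets, for Coro1a (-2.94) and Ufd1 (-0.25) over plain-suffix probe sets, and for Clec4g (0.72) and Ufd1 (-0.25) with the probe set of smallest ratio, since other probe sets of these genes read the other way. Sign changes of ratios within 0.5 are not listed. No paired analysis was possible because each group has 1 array.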

Other observations

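Regulators of interferon signalling, which act upstream of the immunoproteasome genes, went both ways. Irf1, an activator of Psmb8 and Psmb9, read 266.0 in the squalene pool and 185.6 in the control pool (log2 ratio 0.52), and Irf2, a factor that competes with it, read 180.3 in the squalene pool and 98.7 in the control pool (log2 ratio 0.87). Jak1 read 0.35 on the brightest of its probe sets and -0.39 on the next. The receptor chain Ifngr1 read 77.9 in the squalene pool and 111.6 in the control pool (log2 ratio -0.52), and Jak2 stood at -0.45 and -0.24 on its probe sets. Of 10 measured genes of 12 listed, 7 lay above 0, beside 51.1% of all genes, with a median of 0.36 and an SD over genes of 1.14. Over the 8 with a mean signal at or above the array median, the median was 0.23. Scaled to the spike-ins, the median of the 10 would be 0.61, with 2 below 0. The list includes Socs1, whose signals were below the array median in both pools (13.4 in the squalene pool and 1.2 in the control pool).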
